A study of Mus musculus with 11 samples.

Results

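The dystrophin complex links the cytoskeleton of a muscle fiber to the laminin of its basement membrane. Read counts of 8 of its genes were compared between muscle spindles and adjacent extrafusal muscle of the mouse deep masseter. These were the rows of the deposited table with the symbols *Dmd*, *Utrn*, *Sgca*, *Sgcb*, *Sgcd*, *Sntb1*, *Dtna* and *Nos1*, 8 of 22384 genes, and all 8 were found. The spindle is a stretch receptor made of small intrafusal fibers, their sensory and motor endings and a capsule. The spindle group held 5 libraries (mice 9, 10, 12, 13 and 16) and the muscle group 6 libraries (the same mice and mouse 11). All mice carried *Piezo2* EGFP-IRES-Cre and Rosa26 tdTomato, and the sources used here give neither sex nor age for the sequenced animals. Bundles of fluorescent spindles were picked by hand, so each spindle library pools many spindles with their nerve endings, capsule and any tissue held with them. Non-fluorescent extrafusal fibers beside them made the muscle group. In this cross the reporter also lights the capsule and the intrafusal fibers, so fluorescence marks the organ and not 1 cell type. The authors left out 1 further spindle sample for few uniquely aligned reads.

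Dystrophin, the product of *Dmd*, binds actin under the membrane and, through dystroglycan, the laminin outside it. Sarcoglycans brace this link within the membrane, while dystrobrevin and the syntrophins sit on the inner side and hold signaling proteins, among them neuronal nitric oxide synthase (*Nos1*). Utrophin (*Utrn*) is the close relative of dystrophin that gathers at neuromuscular junctions and is also made by vascular and Schwann cells. Loss of dystrophin, or of the α-, β- or δ-sarcoglycan compared here, causes muscular dystrophy in humans.

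The spindle and muscle libraries held 8354260 to 23430654 reads in genes. Markers of intrafusal, slow and cardiac fibers were genes of myosins and of troponin C (*Tnnc1*). These markers summed to 863.6 to 1280 CPM (reads relative to the TMM-scaled library size) in spindle and 2.471 to 8.841 CPM in muscle. The tissue labels thus matched in all 11 libraries. No marker gene with a row in the table was at 0 throughout a group, and *Nefm* and *Nefl* of the 9 neuron markers had no row. Spindle 16 and muscle 12 stood apart from their groups on the first principal component, with scores of 2.28 and -22.94. The other spindle libraries scored 95 to 105.25 and the other muscle libraries -80.75 to -72.93. The members' counts of genes that passed were the same without these libraries, 1 higher and 6 lower. Odorant receptor genes summed to 144.4 to 227.9 CPM in spindle 9, 10, 12 and 13 and 17.22 CPM in spindle 16, against 9.224 to 63.32 CPM in muscle. Without spindle 10, 12 and 13, which held the most such reads, 1 member passed higher and 2 passed lower. This fit keeps only spindle 9 and 16 in the spindle group, and spindle 9 still held 144.4 CPM of such reads. The members' median log2 fold change was -0.44 there and -0.5 with all libraries. Reads of mitochondrially encoded genes made up 22.6% to 38.2% of the spindle and 16.7% to 24.8% of the muscle libraries, and leaving these genes out of the fit changed no member's call. A normalized count here is a read count scaled by TMM (trimmed mean of M values) to a common library size. A gene passed where the adjusted p of edgeR's quasi-likelihood test was at most 0.05 and its mean normalized count at least 5, and it was called where the log2 fold change was also at least 1 in size.

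The gene of dystrophin spans chrX:82948870-85206141 (GRCm38, plus strand), and the reads counted for it sum transcripts from several starts. Of its 14 annotated transcripts, 6 begin at or after a start that lies 2099425 bases inside the gene. The 250 bases before both starts are shown because the counts cannot tell these products apart, and the start of α-sarcoglycan is shown beside them because *Sgca* gave the highest level per length of the 8 genes. The sequences are those of RefSeq on GRCm38.p6, and capitals mark matches on either strand to an E-box (CANNTG), a TATA box (TATAAA), a GC box (GGGCGG), a CArG box or a MEF2 site.
Dmd, first start (chrX:82948620-82948869, plus strand): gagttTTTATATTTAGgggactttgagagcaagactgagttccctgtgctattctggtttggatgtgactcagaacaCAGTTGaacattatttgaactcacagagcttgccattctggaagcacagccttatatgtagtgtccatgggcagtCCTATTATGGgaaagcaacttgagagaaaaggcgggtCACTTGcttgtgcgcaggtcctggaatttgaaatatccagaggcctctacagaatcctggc
Dmd, second start (chrX:85048045-85048294, plus strand): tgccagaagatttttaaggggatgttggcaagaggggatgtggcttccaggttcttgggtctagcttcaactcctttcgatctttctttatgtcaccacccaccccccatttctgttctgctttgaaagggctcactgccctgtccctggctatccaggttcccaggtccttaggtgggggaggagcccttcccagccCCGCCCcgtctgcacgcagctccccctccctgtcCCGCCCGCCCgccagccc
Sgca (chr11:94976328-94976577, minus strand): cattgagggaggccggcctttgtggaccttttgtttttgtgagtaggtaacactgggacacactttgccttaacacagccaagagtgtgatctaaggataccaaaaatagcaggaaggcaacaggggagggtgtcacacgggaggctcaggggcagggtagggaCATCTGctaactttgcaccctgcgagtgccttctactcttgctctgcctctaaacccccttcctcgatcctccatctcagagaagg

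The window before the first *Dmd* start held 2 E-boxes, 1 CArG box and 1 MEF2 site that overlaps a TATA box. The window before the second held 3 GC boxes and no match to the other motifs. That of *Sgca* held 1 E-box. Among 32851 RefSeq windows of this length, 66.2% held an E-box, 32.7% a GC box, 12.4% a TATA box, 2.92% a MEF2 site and 1.47% a CArG box. A match describes the letters only. Windows were found for 6 of the 8 genes.

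*Dmd*, the gene of dystrophin, had 1387, 1363, 1081, 1179 and 1244 normalized counts in spindle 9, 10, 12, 13 and 16. In muscle it had 1263, 1567 and 2328 normalized counts as the lowest, median and highest of 6 libraries. The groups overlapped, since spindle 9 and spindle 10 lay above muscle 12. The means were 1251 ± 127.8 in spindle and 1646 ± 379.9 in muscle (SD, n = 5 and 6). The log2 fold change was -0.39 (SE 0.15, edgeR adjusted p = 0.04028), and *Dmd* was lower in spindle in 5 of 5 mice, by 0.22 to 0.77 on the log2 scale. The pass rests on single libraries: leaving out spindle 12, 13 or 16 gave adjusted p = 0.101, 0.07631 or 0.05196, and leaving out muscle 9, 10 or 16 gave adjusted p = 0.05321, 0.06704 or 0.05812 (edgeR). It was also lost with library size alone (log2 fold change -0.07) and with DESeq2 size factors (-0.32).

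*Utrn*, at chr10:12382188-12869365, ran the other way. It had 1148, 1410, 1201, 938.1 and 1277 normalized counts in spindle 9, 10, 12, 13 and 16, against 418.4, 517 and 691 as the lowest, median and highest in muscle. Every spindle library lay above every muscle library, as for 9.15% of all genes. The means were 1195 ± 174 in spindle and 539.5 ± 105 in muscle (SD, n = 5 and 6), 2.21-fold higher in spindle. The log2 fold change was 1.15 (SE 0.14, edgeR adjusted p = 5.478e-06), higher in 5 of 5 mice by 0.78 to 1.61. It was the 1 member called higher, where 11.0% of all genes were called higher. With the median of all genes set at 0, a setting chosen after seeing the data, its log2 fold change was 0.85, which passed but was no longer called. Markers of cells that are known to make utrophin gave mixed values. The Schwann cell list (9 of 10 genes passed, all higher) summed to 652.3 to 1223 CPM in spindle and 102.4 to 344.1 CPM in muscle. The list of neuromuscular junction nuclei (6 of 8 passed, all higher) summed to 208.8 to 337.6 CPM in spindle and 146.1 to 184.4 CPM in muscle. Endothelial markers (1 of 8 passed) summed to 362 to 703.8 CPM in spindle and 432.3 to 710.5 CPM in muscle, and smooth muscle markers (1 of 8 passed higher and 1 lower) to 657.3 to 908.5 CPM in spindle and 665.7 to 1036 CPM in muscle. The part of these cells in the rise of *Utrn* was not tested, and in bulk samples fewer cells of a type cannot be told apart from less RNA per cell.

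**Figure D1:**
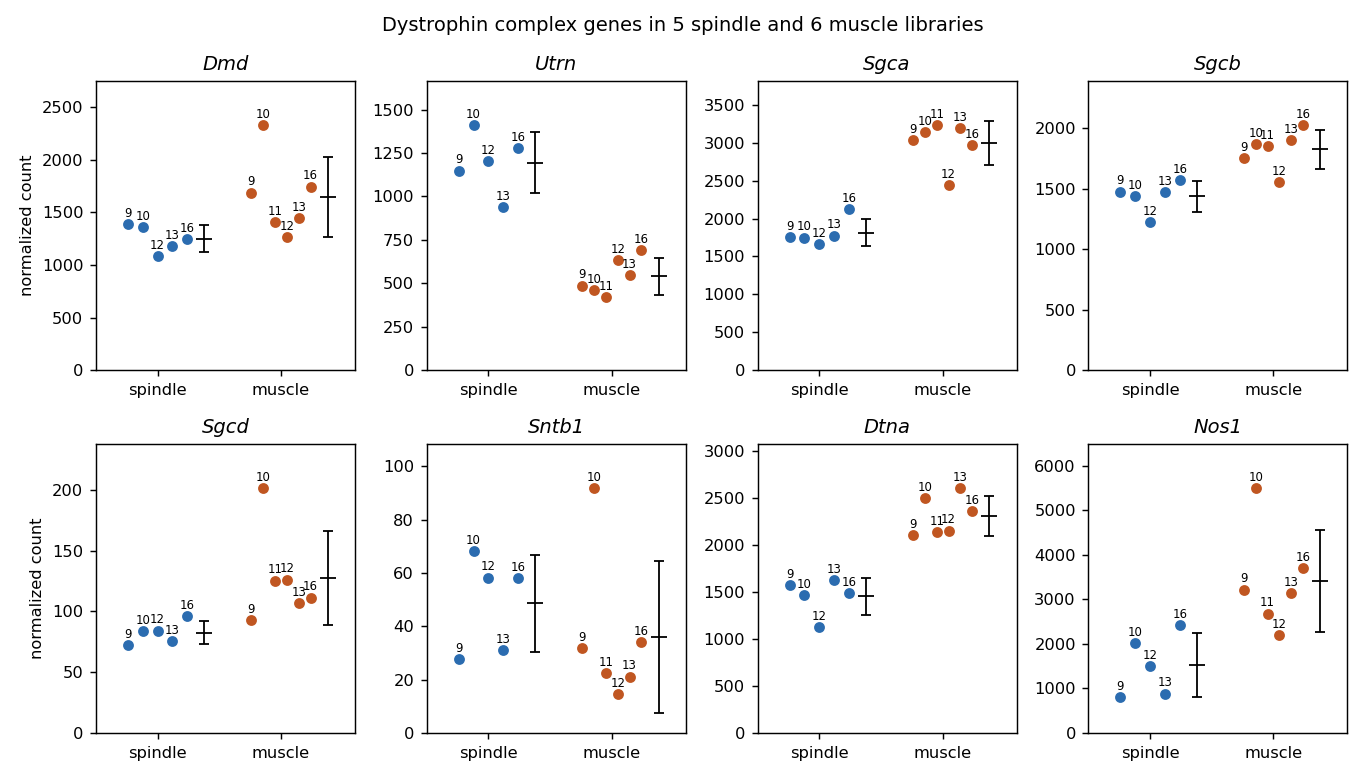
Normalized counts of the 8 genes, 1 panel each with its own axis starting at 0. Points are libraries labelled with the mouse number, spindle in blue on the left and muscle in orange on the right, and the black bar is the mean ± SD. All 5 spindle points lie above the muscle points for *Utrn* and below them for *Sgca* and *Dtna*, and muscle 10 is far above the other muscle libraries for *Sgcd* and *Sntb1*.

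The change in the balance of *Utrn* and *Dmd* reads can be taken within a library, where no scaling enters. The *Dmd* reads include any from transcripts that begin inside the gene. For each read of *Dmd*, spindle libraries held 0.827, 1.03, 1.11, 0.795 and 1.03 reads of *Utrn* (mice 9, 10, 12, 13 and 16), against 0.199 to 0.501 in the 6 muscle libraries. The log2 ratio differed by 1.53, which is 2.88-fold, and the groups did not overlap. The exact two-sided permutation test over the 462 ways to divide the 11 libraries gave p = 0.002165, the smallest it can give, and adjusted p = 0.006494 over 6 ratios. The ratio was higher in spindle in 5 of 5 mice, where an exact test of signs within mice cannot go below 0.0625. These are reads per gene and not molecules, since the exons of *Dmd* and *Utrn* differ in length (23801 and 17108 bases). Per kilobase of exon, *Utrn* had 4.50 ± 0.656 CPM in spindle and 2.03 ± 0.396 CPM in muscle, and *Dmd* had 3.39 ± 0.346 CPM in spindle and 4.46 ± 1.03 CPM in muscle.

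Of the 8 genes, 6 passed lower, 1 passed higher and *Sntb1* did not pass. Over all genes 15.8% passed higher and 15.0% passed lower. Among the 10671 genes that averaged 50 or more normalized counts, 16.3% passed higher and 30.2% lower. The members' median log2 fold change was -0.50, against 0.29 over all genes and -0.17 over genes of at least 50 counts. The count of 6 depends on the scaling. With library size alone the median of all genes moved up by 0.31, and 2 members passed lower (*Sgca*, -0.41, and *Dtna*, -0.36) with 1 higher. With the median of genes of at least 50 counts set at 0, an alternative chosen after seeing the data, 3 passed lower and 1 higher.

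The sarcoglycans form a unit within the fiber membrane beside dystroglycan. *Sgca* (α-sarcoglycan, chr11:94962791-94976327), a subunit made in striated muscle, had 1754, 1749, 1666, 1774 and 2129 normalized counts in spindle 9, 10, 12, 13 and 16. In muscle it had 2442, 3089 and 3231 as the lowest, median and highest. All spindle libraries lay below all muscle libraries, as 8.65% of all genes did. *Sgca* fell by 0.73 on the log2 scale (SE 0.12, edgeR adjusted p = 0.0001384), with means of 1815 ± 180.5 in spindle and 3001 ± 291.1 in muscle (SD, n = 5 and 6).

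*Sgcb* (β-sarcoglycan, chr5:73632749-73647790), which the sarcoglycan unit needs for its assembly, had 1475, 1439, 1220, 1473 and 1570 normalized counts in spindle 9, 10, 12, 13 and 16 and a lowest, median and highest of 1550, 1858 and 2023 in muscle. Spindle 16 lay just above muscle 12, so the groups overlapped. *Sgcb* was lower in 5 of 5 mice, with a log2 fold change of -0.35 (SE 0.12, edgeR adjusted p = 0.02594) and within-mouse differences between -0.38 and -0.25. Without spindle 12 the log2 fold change was -0.29 (edgeR adjusted p = 0.07396), and with library size alone it was -0.03.

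*Sgcd* (δ-sarcoglycan, chr11:46896253-47988969), which pairs with the β subunit, had far fewer reads. It had 72.38, 84.04, 84.3, 75.9 and 96.48 normalized counts in spindle 9, 10, 12, 13 and 16, against 93.08, 118.4 and 201.8 as the lowest, median and highest in muscle. Spindle 16 lay above muscle 9 and below the others. The log2 fold change was -0.60 (SE 0.19, edgeR adjusted p = 0.02153), and it was lower in 5 of 5 mice by 0.21 to 1.26.

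Set against *Sgca* in the same library, *Sgcb* fell less. Each read of *Sgca* came with 0.841, 0.823, 0.732, 0.83 and 0.738 reads of *Sgcb* in spindle 9, 10, 12, 13 and 16 and with 0.572 to 0.682 in muscle, with no overlap. The log2 ratio was 0.38 higher in spindle (exact permutation p = 0.002165, adjusted p = 0.006494). The ratio of *Sgcd* to *Sgca* differed by 0.14 on the log2 scale, with 0.0417 to 0.0508 reads in spindle and 0.0308 to 0.0645 in muscle (exact permutation p = 0.4654), which was within the spread of the libraries.

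**Figure D2:**
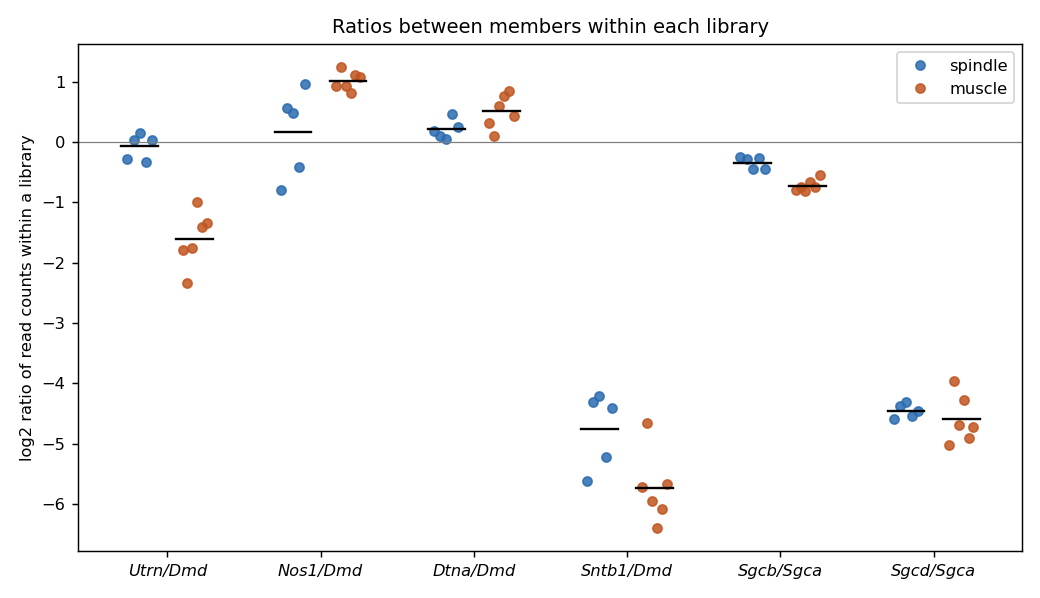
Log2 ratios of read counts within each library (vertical axis) for the 6 pairs of genes compared. Points are libraries, spindle in blue at the left of each pair and muscle in orange at the right, and the black line is the group mean. Spindle and muscle do not overlap for *Utrn*/*Dmd* (difference 1.53) and for *Sgcb*/*Sgca* (difference 0.38), and they overlap for the other 4 pairs.

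α-Dystrobrevin and the syntrophins join dystrophin on the inner face of the membrane. *Dtna* (α-dystrobrevin, chr18:23415135-23659715) had 1568, 1462, 1122, 1627 and 1486 normalized counts in spindle 9, 10, 12, 13 and 16 and a lowest, median and highest of 2103, 2256 and 2605 in muscle. The groups did not overlap, as for 8.65% of all genes with spindle below muscle. The means were 1453 ± 196.6 in spindle and 2309 ± 211.3 in muscle (SD, n = 5 and 6), a log2 fold change of -0.67 (SE 0.13, edgeR adjusted p = 0.0004328). Relative to *Dmd*, which it binds, *Dtna* was lower in 5 of 5 mice, but the difference of -0.30 on the log2 scale did not pass (exact permutation p = 0.07143, adjusted p = 0.08571), and without muscle 10 it was -0.38 with adjusted p = 0.03571 (exact permutation test).

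*Sntb1* (β1-syntrophin, chr15:55636388-55906949), an adaptor with a PDZ domain, was the member with the fewest reads. It had 27.57, 68.17, 58.29, 31.1 and 58.03 normalized counts in spindle 9, 10, 12, 13 and 16, against 14.49, 27.12 and 91.92 as the lowest, median and highest in muscle. Muscle 10 was above every spindle library, and spindle 9 and 13 lay below muscle 9 and 16. The log2 fold change of 0.54 (SE 0.39) did not pass (edgeR adjusted p = 0.2722), and the gene was higher in spindle in 3 of 5 mice. Without muscle 10 the log2 fold change was 0.97 and passed (edgeR adjusted p = 0.02034). Its ratio to *Dmd* was 0.99 higher on the log2 scale in spindle (exact permutation p = 0.03247, adjusted p = 0.0487), in 5 of 5 mice. That pass was lost on leaving out any 1 of 8 libraries, with log2 differences of 0.88 without spindle 10, 0.85 without spindle 12, 0.90 without spindle 16, 0.99 without muscle 9, 0.95 without muscle 11, 0.86 without muscle 12, 0.92 without muscle 13 and 1.0 without muscle 16.

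*Nos1* (neuronal nitric oxide synthase, chr5:117781032-117958840), the enzyme that syntrophin and dystrophin hold at the fiber membrane, fell most among the 8 genes. It had 796.2, 2024, 1499, 882.1 and 2431 normalized counts in spindle 9, 10, 12, 13 and 16, against 2206, 3176 and 5507 as the lowest, median and highest in muscle. Spindle 16 lay above muscle 12, and the other 4 spindle libraries lay below all of muscle. The means were 1526 ± 709.8 in spindle and 3409 ± 1147 in muscle (SD, n = 5 and 6), 0.448 of the muscle level. The log2 fold change was -1.16 (SE 0.32, edgeR adjusted p = 0.01457), which made *Nos1* the 1 member called lower, where 1.80% of all genes were called lower. It passed but was no longer called without spindle 9, without muscle 10 and with the median of genes of at least 50 counts at 0, with a log2 fold change of -0.99 in each case. Within mice it was lower by 2.02, 1.44, 0.56, 1.83 and 0.61 on the log2 scale in mice 9, 10, 12, 13 and 16.

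*Nos1* was also the member that varied most between spindle libraries. Each read of *Dmd* came with 0.574, 1.48, 1.39, 0.748 and 1.95 reads of *Nos1* in spindle 9, 10, 12, 13 and 16 and with 1.75 to 2.37 in muscle. The log2 ratio was 0.86 lower in spindle (-0.86, exact permutation p = 0.008658, adjusted p = 0.01732), and it was lower in 5 of 5 mice. Without muscle 13 and without muscle 16 the adjusted p was 0.06349 in both cases (exact permutation test), with differences of -0.84 and -0.85. With library size alone the fold change of *Nos1* was -0.81 and did not pass (edgeR adjusted p = 0.05329). Antisense gene Gm26995 covers 2.4% of its exons, and reads there cannot be assigned without strand, which the sources used here do not give.

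The fast fiber markers moved with the members that were lower. These 10 genes (8 passed lower and 1 higher) summed to 33180 to 50190 CPM in spindle and 91760 to 113300 CPM in muscle, with a median log2 fold change of -1.16. All members that passed lower, apart from *Nos1* at the same value, had smaller log2 changes than that median. The part of extrafusal fibers in the members' values was not tested.

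Levels were compared between genes per kilobase of exon. In spindle the order was *Sgca* (67.4 ± 6.71 CPM), *Sgcb* (22.8 ± 2.07), *Nos1* (8.83 ± 4.10), *Dtna* (5.53 ± 0.749), *Utrn* (4.50 ± 0.656), *Dmd* (3.39 ± 0.346), *Sgcd* (0.645 ± 0.0727) and *Sntb1* (0.589 ± 0.219 CPM per kilobase, SD, n = 5). In muscle it was *Sgca* (112 ± 10.8 CPM), *Sgcb* (29.0 ± 2.55), *Nos1* (19.7 ± 6.63), *Dtna* (8.79 ± 0.805), *Dmd* (4.46 ± 1.03), *Utrn* (2.03 ± 0.396), *Sgcd* (0.996 ± 0.300) and *Sntb1* (0.436 ± 0.343 CPM per kilobase, SD, n = 6). *Utrn* and *Dmd* changed places between the tissues. Ranges of neighbors overlapped in spindle for *Nos1* and *Dtna*, for *Dtna* and *Utrn*, for *Utrn* and *Dmd*, and for *Sgcd* and *Sntb1*. In muscle they overlapped for *Sgcb* and *Nos1* and for *Sgcd* and *Sntb1*, and the lowest *Utrn* and the highest *Sgcd* value were both 1.58 CPM per kilobase. The longest annotated transcript in place of all exons put *Dtna* (14.9 CPM per kilobase in spindle and 23.7 in muscle) above *Nos1* (9.72 in spindle and 21.7 in muscle).

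The other core genes of the complex fell into both directions. Of the 11 listed, 10 were in the table (*Sgcz* had no row), 6 passed higher, 2 passed lower and 2 did not pass. By comparison, 15.8% of all genes passed higher and 15.0% lower, and 16.3% and 30.2% of genes of at least 50 counts. Without spindle 16 and muscle 12, 6 passed higher and 4 lower, and without spindle 10, 12 and 13, 3 passed higher and 2 lower.

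*Dag1*, which encodes dystroglycan, had 2993 to 4391 normalized counts in spindle and 3282 to 5009 in muscle and did not pass (log2 fold change -0.24, edgeR adjusted p = 0.1873). *Sspn* (sarcospan, a small membrane protein beside the sarcoglycans) had 1105 to 1753 in spindle and 1310 to 1952 in muscle and did not pass (-0.30, edgeR adjusted p = 0.106). Both values changed sign with library size alone, to 0.08 for *Dag1* and 0.02 for *Sspn*. *Dag1* passed lower without spindle 16 and muscle 12 together (-0.40, edgeR adjusted p = 0.0259) and with the median of all genes at 0 (-0.53, edgeR adjusted p = 0.005709). *Sspn* passed in both of these settings (-0.45 and -0.60), and also without spindle 16 (-0.38, edgeR adjusted p = 0.04863) and without muscle 12 (-0.38, edgeR adjusted p = 0.03449).

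The 6 core genes that were higher are relatives of dystrophin, α-sarcoglycan, α-dystrobrevin and the syntrophins above. *Sgce* (ε-sarcoglycan), the relative of α-sarcoglycan found in many tissues, had 391.2, 296, 298.6, 317.3 and 258 normalized counts in spindle 9, 10, 12, 13 and 16 and 128.6, 153.6 and 236 as the lowest, median and highest in muscle. The groups did not overlap, as for 9.15% of all genes with spindle above muscle, and the log2 fold change was 0.93 (SE 0.16, edgeR adjusted p = 0.0001694). Fibroblast markers (5 of 7 passed, all higher) summed to 1872 to 3225 CPM in spindle and 621.3 to 1834 CPM in muscle. Muscle 12 was the highest muscle library in both this sum and *Sgce*, and spindle 9 (3225 CPM) was the highest spindle library in both. Muscle 10, with the next highest sum in muscle (1685 CPM), had 141.9 normalized counts of *Sgce*. Spindle 16 (2606 CPM) had the fewest *Sgce* counts of the spindle libraries. *Col1a1* weighs heavily in this sum and did not pass (log2 fold change -0.04). It ranged in muscle from 982.1 normalized counts to 15280 in muscle 10, and was also highest among spindle libraries in spindle 16 (11920). Their part in the value of *Sgce* was not tested.

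*Drp2*, a dystrophin-related protein that forms a complex with periaxin and dystroglycan in Schwann cells, had 925.4, 1282, 818.8, 587.3 and 775.4 normalized counts in spindle 9, 10, 12, 13 and 16. In muscle it had 131.7, 171 and 300.1 as the lowest, median and highest. The groups did not overlap, as for 9.15% of all genes with spindle above muscle, and the log2 fold change was 2.16 (SE 0.24, edgeR adjusted p = 7.994e-06). The Schwann cell sum was highest in spindle 10 (1223 CPM), which also held the most *Drp2*, and in muscle it was highest in muscle 10 and 12 (344.1 and 258.8 CPM), where *Drp2* had 273.8 and 300.1 normalized counts. Spindle 9 came next among spindle libraries in both (889.6 CPM and 925.4 normalized counts). Muscle 11 was the lowest muscle library in both (102.4 CPM and 131.7 normalized counts). The order differed for some of the other libraries. Spindle 13 held the least *Drp2* of the spindle libraries, with a Schwann cell sum of 681.9 CPM against 652.3 in spindle 12 and 660.4 in spindle 16. The part of Schwann cells in the value of *Drp2* was not tested.

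*Sntb2* (β2-syntrophin) had 235.9 to 255 normalized counts in spindle and 130.1 to 204.9 in muscle, a log2 fold change of 0.48 (SE 0.14, edgeR adjusted p = 0.01118). *Dtnb* (β-dystrobrevin) had 29.36 to 48.43 in spindle and 12.07 to 37.97 in muscle, with 0.95 (SE 0.31, edgeR adjusted p = 0.02202). Without spindle 12, muscle 9, muscle 11 or muscle 16 the log2 fold change of *Dtnb* was 0.82, 0.83, 0.90 or 0.86 and did not pass. Both γ-syntrophins, known from neurons and other tissues, were near the limit of detection in muscle. *Sntg2* had 11.2 to 49.98 normalized counts in spindle and 1.998 to 7.757 in muscle (log2 fold change 2.18, SE 0.49, edgeR adjusted p = 0.001916). *Sntg1* had 0 reads in spindle 16 and in muscle 9, 13 and 16, and up to 33.59 normalized counts in spindle and 9.991 in muscle. Its fitted log2 fold change of 2.83 (SE 1.0, edgeR adjusted p = 0.03478) did not pass without any 1 of 8 libraries, with 2.83 without spindle 10, 2.76 without spindle 12, 2.48 without spindle 13, 2.81 without spindle 9, 3.05 without muscle 11, 2.51 without muscle 13, 2.51 without muscle 16 and 2.53 without muscle 9.

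**Figure D3:**
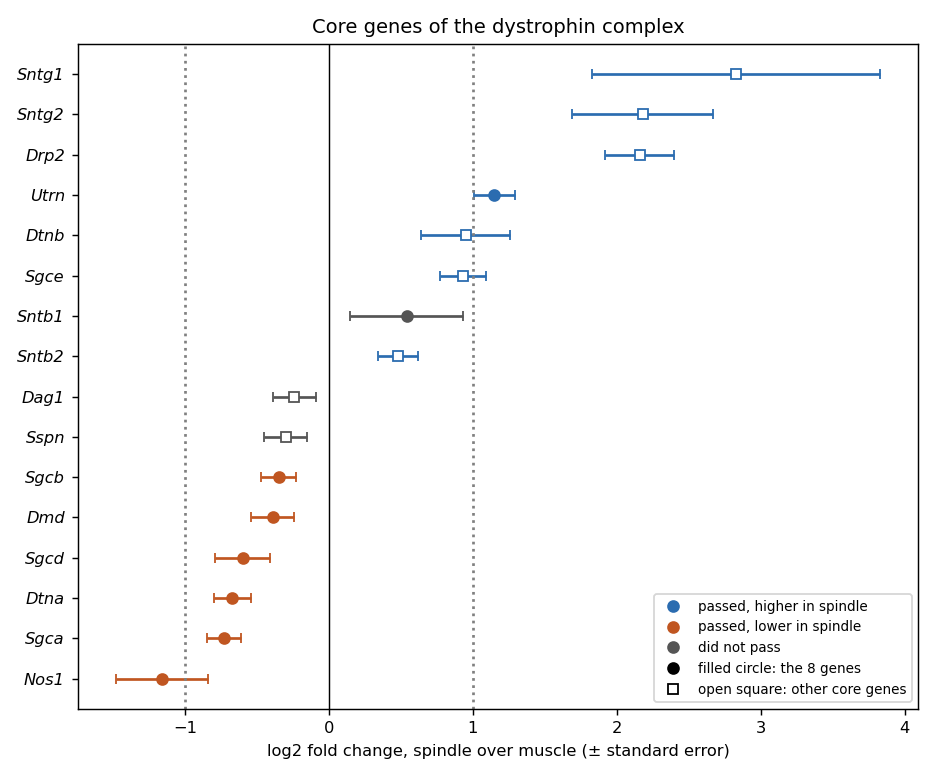
Log2 fold changes of spindle over muscle (horizontal axis) with standard errors for the 8 genes (filled circles) and 8 other core genes (open squares). Blue passed higher, orange passed lower and gray did not pass, and dotted lines mark a log2 fold change of 1 in either direction. *Utrn* (1.15) and *Drp2* (2.16) lie right of the upper line, and *Nos1* (-1.16) left of the lower one.

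Outside the fiber, dystroglycan binds laminin, perlecan and agrin, and the sarcoglycans bind biglycan. Of 9 such ligands, 4 passed higher in spindle, none lower and 5 did not pass, with 3 higher without spindle 10, 12 and 13. Their median log2 fold change was 0.34. Over all genes 15.8% passed higher and 15.0% lower, and among genes of at least 50 counts 16.3% and 30.2%. Biglycan (*Bgn*) had 3071, 2521, 2513, 2029 and 2957 normalized counts in spindle 9, 10, 12, 13 and 16 and 282.7, 755.4 and 1145 as the lowest, median and highest in muscle, and was called (log2 fold change 1.84, SE 0.31, edgeR adjusted p = 0.0007967). The main laminin chain of the muscle basement membrane, *Lama2*, was higher by 0.67 (SE 0.16, edgeR adjusted p = 0.002635), with spindle 12 (593.7) below muscle 10 (625.4). *Lama4*, the α4 chain of vessel and nerve basement membranes, was higher by 0.64 (SE 0.13, edgeR adjusted p = 0.001162) with no overlap, as for 9.15% of all genes with spindle above muscle.

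Enzymes that build the laminin-binding sugar of dystroglycan went the other way. Of 14 listed, 13 were in the table, 6 passed lower and none higher, and their median log2 fold change was -0.28. Among all genes of at least 50 counts, 30.2% passed lower and 16.3% higher, with a median of -0.17. Without spindle 10, 12 and 13, 3 passed lower. With library size alone 2 passed lower and 1 higher, and the median was 0.03. *B3galnt2*, a sugar transferase early in this pathway, had 282.6 to 466.3 normalized counts in spindle and 611.6 to 886.5 in muscle (log2 fold change -1.03, SE 0.14, edgeR adjusted p = 1.218e-05), although 9.2% of its exons overlap genes on the opposite strand. *Pomgnt2* had 129.4 to 178.3 in spindle and 194.6 to 244.3 in muscle (-0.51, SE 0.13, edgeR adjusted p = 0.006518) and did not pass with library size alone (-0.19).

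Of 15 cytoskeletal and membrane partners, 14 were in the table (*Krt8* had no row), 4 passed higher, 7 lower and 3 did not pass. The shares over all genes were 15.8% higher and 15.0% lower, and over genes of at least 50 counts 16.3% and 30.2%. Without spindle 10, 12 and 13, 3 passed higher and 4 lower. *Aqp4*, the water channel of fast fibers that the complex holds in the membrane, had 346.4, 397.8, 305.8, 363.3 and 433.5 normalized counts in spindle 9, 10, 12, 13 and 16, against 949, 1235 and 1736 as the lowest, median and highest in muscle. Its log2 fold change was -1.80 (SE 0.15, edgeR adjusted p = 3.075e-08). *Itga7*, the α7 integrin that is the other laminin receptor of muscle, had 1323 to 2204 in spindle and 705.2 to 1045 in muscle (1.1, SE 0.14, edgeR adjusted p = 8.144e-06). *Krt19*, the keratin that binds dystrophin in striated muscle and is also on the list of perineurial and capsule markers, had 76.91 to 133.1 in spindle and at most 6.209 in muscle, with 0 reads in muscle 10 (4.48, SE 0.32, edgeR adjusted p = 3.642e-09). The 6 perineurial and capsule markers, *Krt19* among them, summed to 233 to 381.9 CPM in spindle and 9.369 to 18.95 CPM in muscle.

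The genes whose pattern over the 11 libraries was most like that of a member were found among 10664 genes that averaged 50 or more normalized counts, by the root mean square difference of centered log2 CPM. For *Utrn* they were *Cdc42ep4* (0.125), *Smo* (0.137) and *Ldlrad3* (0.144). For *Nos1* they were *AI506816* (0.159) and *Acvr1b* (0.167). For *Dmd* they were *Ldoc1l* (0.1), *Prdm15* (0.102) and *Shoc2* (0.128). They were chosen for this likeness, so their values are a description.

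The direction of all 8 members was the same in each of the 22 other settings run, while the size moved with the scaling. *Utrn* ranged over settings that left out 1 library between 1.07 and 1.22, and *Nos1* between -1.39 and -0.99.

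**Figure D4:**
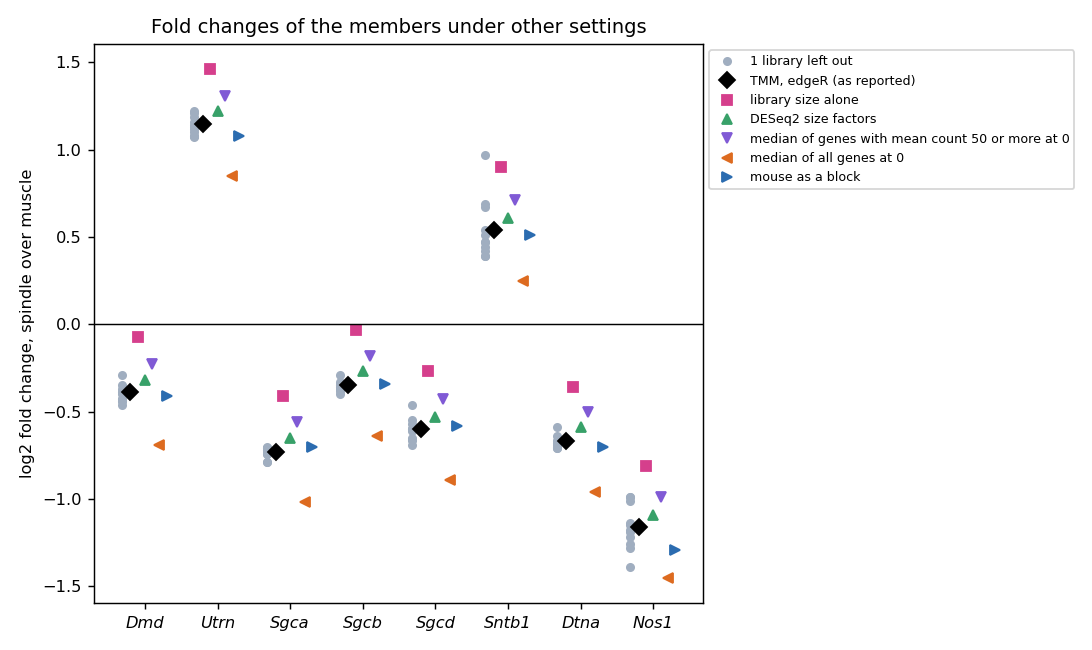
Log2 fold change of spindle over muscle (vertical axis) for the 8 genes under the reported setting (black diamonds), with 1 library left out (gray points), and with other scalings or the mouse as a block (colored symbols). No gene crosses 0, and *Dmd* (-0.07) and *Sgcb* (-0.03) come closest to it with library size alone.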

How the data were processed

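Polyadenylated RNA of 5 spindle and 6 muscle samples was sequenced single-end by the authors, who aligned it with STAR 2.4.2a (GRCm38, GENCODE) and counted unique alignments. The deposited counts are raw reads per gene, for genes that reached 5 reads in any sample. The deposited signal columns (counts divided by DESeq2 1.16.1 size factors), the deposited log2 columns (regularized log2 values and the authors' fold change) and the authors' deposited p-values were not used. The counts were fitted with edgeR 4.0.16 in R 4.3.3 (TMM, robust quasi-likelihood, group only, Benjamini-Hochberg over all 22384 genes). Ratios of members within a library had 0.5 added to each count. Alternatives were DESeq2 1.42.0, limma-voom (limma 3.58.1), other scalings, a filter, left-out libraries and a mouse block. Positions and exon lengths came from GENCODE vM21, an earlier release than that of the authors. Python 3.11.15 and matplotlib 3.10.9 were used for ratios and plots.

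Library totals of 8354260 to 23430654 reads set the precision. The fit was tested on simulated data. Same-numbered libraries come from the same mouse, and their deviations from the group means correlated at 0.07, 0.35, 0.16, 0.27 and 0.28 in mice 9, 10, 12, 13 and 16 over 12557 genes. p-values rest on the spread between mice of a group.

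The members and lists were chosen with earlier results of these data known. Named were all 8 members, the 11 other core genes, the 3 genes with the smallest adjusted p in each of the lists of ligands, glycosylation and partners, and the 3 genes most like *Dmd*, *Utrn* and *Nos1*; some of these are not reported here.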

Additional observations from a re-analysis of the deposited data

Results flagged for a closer look

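Among 66 groups of libraries examined, 8 held a highest or lowest library whose gap to the next was large against the group's range, where chance gives about 5%. Muscle 10 was the highest muscle library for *Sgcd* (201.8 normalized counts), *Sntb1* (91.92) and *Dtnb* (37.97). Muscle 12 was the lowest muscle library for *Sgca* (2442) and the highest for *Sgce* (236). Spindle 16 was the highest spindle library for *Sgca* (2129), spindle 9 for *Sntg2* (49.98) and spindle 13 for *Krt19* (133.1).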

How the results depend on the processing

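*Utrn*, *Sgca* and *Dtna* passed in all 22 other settings. With library size alone the log2 fold change was -0.07 for *Dmd*, -0.03 for *Sgcb*, -0.27 for *Sgcd* and -0.81 for *Nos1*, none past the threshold, and it turned to 0.08 for *Dag1* and 0.02 for *Sspn*. With the median of genes of at least 50 counts at 0, a setting chosen after seeing the data, *Dmd* (-0.23), *Sgcb* (-0.18) and *Sgcd* (-0.43) did not pass. DESeq2 size factors took *Dmd* to -0.32 and *Sgcb* to -0.27. DESeq2 itself (-0.32), the filterByExpr filter (-0.32) and limma-voom (-0.37) did so for *Dmd*, and limma-voom for *Sgcd* (-0.49). Without spindle 10, 12 and 13 *Dmd* (-0.32), *Sgcb* (-0.26), *Sgcd* (-0.56) and *Nos1* (-1.07) did not pass. On leaving out 1 library, *Dmd* ranged between -0.46 and -0.29, *Sgcb* between -0.40 and -0.29 and *Sntb1* between 0.39 and 0.97. The ratios to *Dmd* then ranged between 0.85 and 1.21 for *Sntb1*, -1.06 and -0.62 for *Nos1*, and -0.38 and -0.24 for *Dtna*. Without spindle 16 and muscle 12 the *Sntb1*/*Dmd* difference was 0.77 and did not pass. The cause of these differences was not tested.

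With the mouse as a replicate block in edgeR no member changed its call, with 1.08 for *Utrn*, -0.41 for *Dmd* and -1.29 for *Nos1*. Ratios paired within mice differed by 1.5 (*Utrn*/*Dmd*), -0.88 (*Nos1*/*Dmd*), 0.95 (*Sntb1*/*Dmd*) and 0.36 (*Sgcb*/*Sgca*), and 5 pairs cannot give p below 0.0625.

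Of all genes, 2470 were called higher and 403 lower, and 3535 and 3349 passed. Library size alone gave 140 called lower, with 5417 passing higher and 904 lower. The median of all genes at 0, also chosen after seeing the data, gave 1207 called lower and 6128 passing lower, and the median of genes of at least 50 counts gave 233 and 1907. Without spindle 10, 12 and 13, 1576 were called higher, and 1992 passed higher and 1197 lower. Low read counts limit what can be said of *Sntb1*, *Sgcd* and both γ-syntrophins.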
